A study of Arabidopsis thaliana with 6 samples.

Results

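The genes described here are 10 genes of Arabidopsis thaliana that take part in seed oil breakdown, the glyoxylate cycle and the step that leads from it to sugar. They were chosen by locus identifier for these known functions, with earlier results of these data known. All 10 were present among the 32678 genes of the deposited count table. The tested samples were 3 libraries labelled papl1-1papl2, also named cog1-6cdf4, a double mutant of the PINEAPPLE genes. Both genes, COG1 and CDF4, are annotated as Dof-type zinc finger proteins that bind DNA. The comparison samples were 3 libraries labelled Col0, the wild-type laboratory accession. Both came from root meristems cut by hand from seedlings 5 days old, kept at 23 °C under long days. The plates of both genotypes held half-strength (0.5 x) MS salts with 1% sucrose, so every seedling had an outside supply of sugar. The labels say that only the best 3 RNA samples of each genotype were sequenced.

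Seeds of Arabidopsis store carbon as oil, and a germinating seedling lives on it until it can photosynthesise. Lipases free the fatty acids, LACS6 and LACS7 activate them in the peroxisome with coenzyme A, and beta-oxidation by the ACX oxidases, MFP2 and the thiolase KAT2 cuts them into acetyl-CoA. Isocitrate lyase (ICL) and malate synthase (MLS), the enzymes particular to the glyoxylate cycle, turn acetyl-CoA into acids that phosphoenolpyruvate carboxykinase (PCK1) can commit to sugar synthesis. The beta-oxidation steps also serve jasmonate synthesis and the conversion of indole-3-butyric acid to auxin, so they are used well beyond the seedling stage. The series title names a transition to autotrophy, and the comparison asks how the transcripts of this heterotrophic pathway stood in the mutant root meristem.

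The promoters of ICL and MLS are shown because these partner enzymes of the glyoxylate cycle had the highest fold changes of the 10 members. ICL was the member past the test, and MLS was added after its values were seen. Each run holds 250 bases before and 50 bases from the annotated gene start, read 5′ to 3′ on the minus strand of the TAIR10.1 assembly (RefSeq). The capitals mark AAAG or its reverse complement CTTT, the core bound by Dof proteins. The ICL window lies at chr3:7656004-7656303 and the MLS window at chr5:1034924-1035223.
ICL promoter: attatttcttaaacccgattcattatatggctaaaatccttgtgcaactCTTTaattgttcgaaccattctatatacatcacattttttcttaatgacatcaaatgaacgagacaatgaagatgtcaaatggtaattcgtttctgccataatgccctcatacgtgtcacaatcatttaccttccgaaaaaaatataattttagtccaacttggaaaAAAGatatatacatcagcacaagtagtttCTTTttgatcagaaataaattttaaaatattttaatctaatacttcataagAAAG
MLS promoter: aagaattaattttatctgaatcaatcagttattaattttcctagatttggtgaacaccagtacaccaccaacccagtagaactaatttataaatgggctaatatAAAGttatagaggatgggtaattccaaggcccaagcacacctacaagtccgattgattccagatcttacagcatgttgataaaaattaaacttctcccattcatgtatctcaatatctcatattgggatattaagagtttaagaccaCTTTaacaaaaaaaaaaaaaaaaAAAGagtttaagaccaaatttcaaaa
The ICL window held 4 matches to the Dof core and the MLS window 3, counting both strands. Matches to so short a word are common, and 99.1% of the 27443 promoter windows of protein-coding nuclear genes held at least 1, with a median of 5. At least as many matches as ICL were found in 72.4% of windows, and at least as many as MLS in 86.3%. The 10 members held 2 to 7 matches, with a median of 4. The longer run AAAAAG, which contains AAAG, was present in 9 of the 10 windows and in 58.6% of all windows. The G-box CACGTG was found in 2 of the 10 windows, among them that of ACX1, and in 7.68% of all windows. TATCCA, the core of a sugar repression element, was found in those of LACS7 and MFP2 and in 16.1% of all windows. The RY core CATGCA, known from seed-specific promoters, was in 0 of the 10 windows and in 9.72% of all. Such matches describe the letters of the window only.

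The libraries labelled papl1-1papl2 held 17849704 to 20621826 counts and those labelled Col0 held 19322466 to 20914576, and each member had at least 306 counts in every library. The mutated loci, looked up by identifier, had more counts in the libraries labelled as mutant. COG1 (AT1G29160) was at 21.8, 20.2 and 16.5 CPM (the read count scaled to a common library size) in the libraries labelled papl1-1papl2, against 12.6, 10.9 and 11.0 CPM in those labelled Col0. CDF4 (AT2G34140) was at 5.50, 6.27 and 6.20 CPM in the libraries labelled papl1-1papl2, against 3.64, 4.56 and 3.86 CPM in those labelled Col0. A count per gene cannot show whether a transcript is intact, and every direction below rests on the labels. The libraries labelled papl1-1papl2 were spread along the second principal component of log2 CPM, which held 30.7% of the variance. Replicate 3 lay at -34.2, and replicates 1 and 2 lay at 28 and 17.7. The libraries labelled Col0 lay between them, from -6.5 to -2.01. Where the call of a named member or listed pathway gene changes without replicate 3 labelled papl1-1papl2, that value is given. For other named genes the fit without that library was not examined. The 6 root meristem markers PLT1, PLT2, SCR, SHR, WOX5 and CYCB1;1 were all detected and summed to 212 to 228 CPM in the libraries labelled papl1-1papl2, against 218 to 224 CPM in those labelled Col0. WOX5 added little to these sums, at 2 to 19 counts per library. The 5 green shoot markers summed to 6.76 to 7.13 CPM in the libraries labelled papl1-1papl2 and to 5.95 to 7.43 CPM in those labelled Col0. Of 8 seed storage protein genes, 7 had 0 counts in all 6 libraries, and the other, CRU2, had at most 5.

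All 10 members passed the filter on low counts and were tested among 17720 genes. In the edgeR quasi-likelihood test, 1 of the 10 was past an adjusted p of 0.05, ICL, which was higher in the libraries labelled papl1-1papl2. Over all tested genes 2.76% were called, 2.23% higher and 0.525% lower. For 3 of the 10 members, ICL, MLS and ACX2, every library labelled papl1-1papl2 exceeded every library labelled Col0, an arrangement seen for 11.7% of all tested genes. The opposite arrangement held for 0 members and for 9.80% of tested genes. The median log2 fold change of the members was 0.10, beside 0.00 for all tested genes. For the 7 members other than these 3 it was 0.07, with a range of -0.05 to 0.12.

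**Figure D1:**
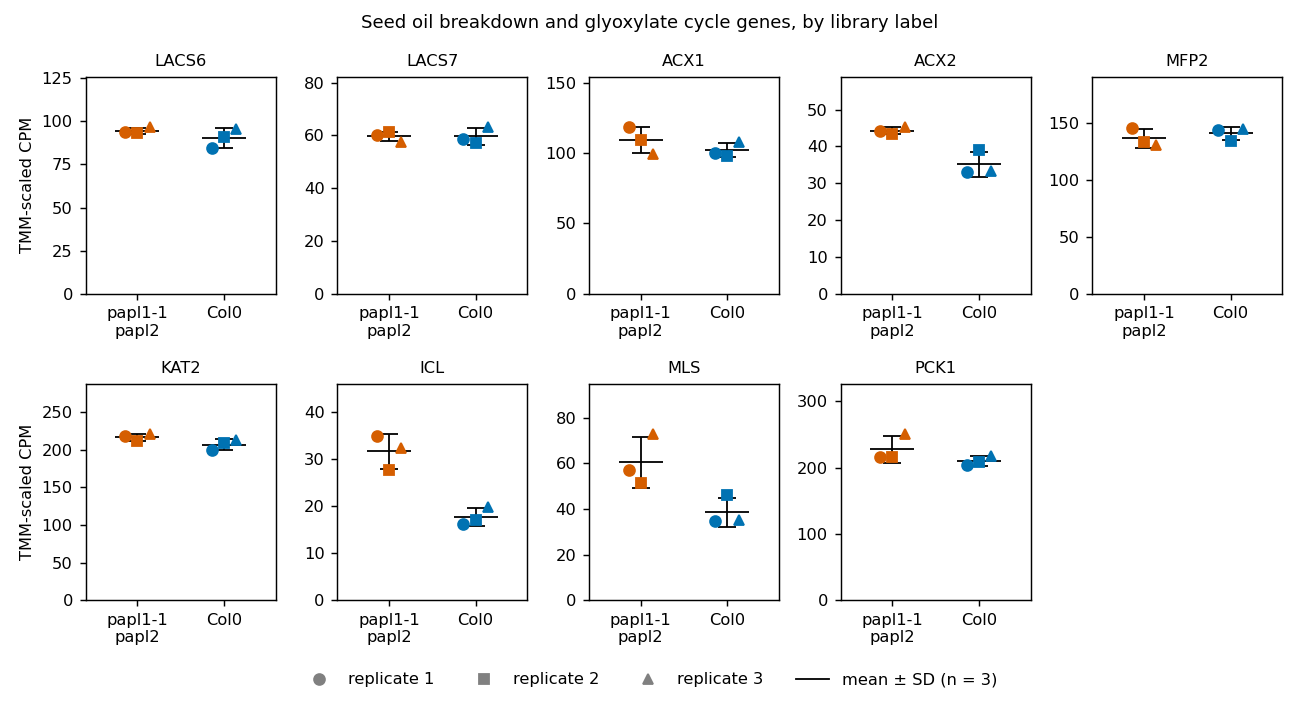
TMM-scaled CPM (vertical axis, starting at 0) of 9 members in each library, with papl1-1papl2 left of Col0 and the bars giving the mean ± SD of 3 libraries. The points of both labels are separate for ICL, MLS and ACX2 and overlap for the other 6 members shown.

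Isocitrate lyase makes glyoxylate and succinate from isocitrate, the first step of the bypass that spares carbon from respiration. ICL (AT3G21720, chromosome 3, 7652487 to 7656053 in TAIR10.1, minus strand) was at 35.0, 27.7 and 32.3 CPM in the libraries labelled papl1-1papl2 (31.7 ± 3.72, SD, n = 3), against 16.1, 17.0 and 19.9 CPM in those labelled Col0 (17.7 ± 1.98, SD, n = 3). Every library labelled papl1-1papl2 lay above every library labelled Col0, with a gap wider than the spread within either label. The raw counts were 732, 499 and 579 in the libraries labelled papl1-1papl2 and 306, 343 and 418 in those labelled Col0. ICL rose 1.79-fold, with an approximate 95% interval of 1.51 to 2.13. On the log2 scale the change was 0.84 with SE 0.11 (adjusted p = 0.00599, edgeR's quasi-likelihood test), and ICL had rank 84 by p among 17720 genes. In bulk tissue, a change in the number of cells that express a gene and a change in RNA per cell cannot be told apart. Markers of other root tissue were uneven between libraries. The 5 root hair and differentiation zone markers EXP7, EXP18, COBL9, PRP3 and LRX1 summed to 12.0, 8.54 and 0.559 CPM in replicates 1 to 3 labelled papl1-1papl2, against 4.62 to 5.41 CPM in the libraries labelled Col0. The 4 root cap markers SMB, BRN1, BRN2 and FEZ summed to 59.2 to 77.1 CPM in the libraries labelled papl1-1papl2 and 74.7 to 80.1 CPM in those labelled Col0. EXP7, EXP18 and PRP3 were at 0 in replicate 3 labelled papl1-1papl2, EXP7 and EXP18 also in replicate 3 labelled Col0, and PRP3 also in replicate 1 labelled Col0. Of these 9 markers 8 were tested and 0 were called in the edgeR quasi-likelihood test. At an unadjusted p under 0.05 there were 2 of the 8, beside 15.9% of all tested genes. These were the root cap genes SMB and BRN2, both with negative log2 fold changes. The log2 fold change of ICL was 0.82 without replicate 3 labelled papl1-1papl2 (adjusted p = 0.00173, edgeR). The libraries left in that fit stayed uneven in these markers, with root cap sums of 59.2 and 64.5 CPM in replicates 1 and 2 labelled papl1-1papl2. The part of root cap and root hair cells in the ICL result was not tested.

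Malate synthase joins glyoxylate to acetyl-CoA to give malate, the step after isocitrate lyase. MLS (AT5G03860, chromosome 5, 1032099 to 1034973, minus strand) was at 57.1, 51.3 and 72.8 CPM in the libraries labelled papl1-1papl2 (60.4 ± 11.2, SD, n = 3), against 34.7, 45.9 and 35.1 CPM in those labelled Col0 (38.5 ± 6.35, SD, n = 3). The labels did not overlap, but replicate 2 of Col0 and replicate 2 of papl1-1papl2 were close. The log2 difference of MLS was 0.65 with SE 0.14, a ratio of 1.57 with an approximate 95% interval of 1.25 to 1.96. MLS fell just short of the threshold of 0.05 (adjusted p = 0.0508, edgeR's quasi-likelihood test). Without replicate 3 labelled papl1-1papl2, its highest library, the log2 difference fell to 0.49, the lowest of the 12 alternatives (adjusted p = 0.0190, edgeR). Without replicate 2 labelled Col0 it was 0.79 (adjusted p = 0.0429, edgeR). With the DESeq2 Wald test the adjusted p was 0.000122. Over all 12 alternatives the adjusted p ran from 0.000122 to 0.240. Added together, ICL and MLS gave 79.0 to 105 CPM in the libraries labelled papl1-1papl2, against 50.8 to 62.9 CPM in those labelled Col0. Per kilobase of transcript, the level of ICL was 0.561, 0.494 and 0.406 times that of MLS in the libraries labelled papl1-1papl2, and 0.426, 0.339 and 0.519 times in those labelled Col0. These ratios overlapped between the labels.

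PCK1, which turns oxaloacetate into phosphoenolpyruvate at the entry to sugar synthesis, was among the most abundant members. PCK1 (AT4G37870, chromosome 4, 17802690 to 17806705, minus strand) was at 216, 216 and 251 CPM in the libraries labelled papl1-1papl2, against 204, 209 and 217 CPM in those labelled Col0. Replicate 3 labelled papl1-1papl2 was the highest, and the other values of the labels overlapped. The log2 fold change was 0.12, with an approximate 95% interval of -0.04 to 0.27 (adjusted p = 0.461, edgeR's quasi-likelihood test). A share of 1.18% of the stretches of 50 bases in its exons occurs elsewhere in the genome, and such reads could be shared with other loci.

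For the activation of fatty acids, the transcripts of LACS6 and LACS7 were read. LACS6 (AT3G05970, chromosome 3) was at 94.0, 93.4 and 96.8 CPM in the libraries labelled papl1-1papl2, against 84.6, 91.2 and 95.8 CPM in those labelled Col0. LACS7 (AT5G27600, chromosome 5), its partner in the peroxisome, was at 60.1, 61.1 and 57.7 CPM in the libraries labelled papl1-1papl2, against 58.5, 57.1 and 63.2 CPM in those labelled Col0. Both overlapped between the labels. Their ratios, papl1-1papl2 over Col0, had approximate 95% intervals of 0.952 to 1.15 for LACS6 and 0.909 to 1.10 for LACS7.

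Acyl-CoA oxidases open each round of beta-oxidation, and the members of the family differ in the chain length they prefer. ACX2 (AT5G65110, chromosome 5, 26009521 to 26012684, minus strand), which acts on long chains, was at 44.2, 43.4 and 45.3 CPM in the libraries labelled papl1-1papl2 (44.3 ± 0.949, SD, n = 3), against 33.0, 39.0 and 33.4 CPM in those labelled Col0 (35.1 ± 3.37, SD, n = 3). The labels did not overlap, and replicate 2 labelled Col0 came nearest to the other label. ACX2 was not called, at a log2 difference of 0.33 with SE 0.08 (adjusted p = 0.0573, edgeR's quasi-likelihood test). That adjusted p was 0.0416 without replicate 3 labelled papl1-1papl2, 0.0359 without replicate 2 labelled Col0 and up to 0.240 over the 12 alternatives. The log2 difference was 0.31 without the first of these libraries and 0.41 without the second. ACX1 (AT4G16760, chromosome 4), which acts on medium to long chains and on jasmonate precursors, was at 118, 109 and 99.6 CPM in the libraries labelled papl1-1papl2, against 100, 98.0 and 108 CPM in those labelled Col0. These values overlapped, and the ratio of ACX1 had an approximate 95% interval of 0.956 to 1.20.

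MFP2 and KAT2 carry out the remaining steps of the cycle, hydration with dehydrogenation and thiolysis. MFP2 (AT3G06860, chromosome 3) was at 146, 133 and 130 CPM in the libraries labelled papl1-1papl2, against 144, 135 and 144 CPM in those labelled Col0. Its log2 fold change of -0.05 was the only negative one among the 10 members (adjusted p = 0.785, edgeR's quasi-likelihood test). KAT2 (AT2G33150, annotated as PKT3, chromosome 2), the main thiolase of seedling fat breakdown, was at 218, 212 and 221 CPM in the libraries labelled papl1-1papl2, against 199, 209 and 213 CPM in those labelled Col0. Both genes overlapped between the labels. The intervals of the ratio were 0.880 to 1.07 for MFP2 and 0.966 to 1.13 for KAT2. Summed over LACS6, LACS7, ACX1, ACX2, MFP2 and KAT2, the level was 661 ± 16.8 CPM in the libraries labelled papl1-1papl2 and 635 ± 19.7 CPM in those labelled Col0 (SD, n = 3 each), a ratio of 1.04. The same ratio was 1.64 for the sum of ICL and MLS. These sums are given as a description, and the difference between the groups of genes was not tested.

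**Figure D2:**
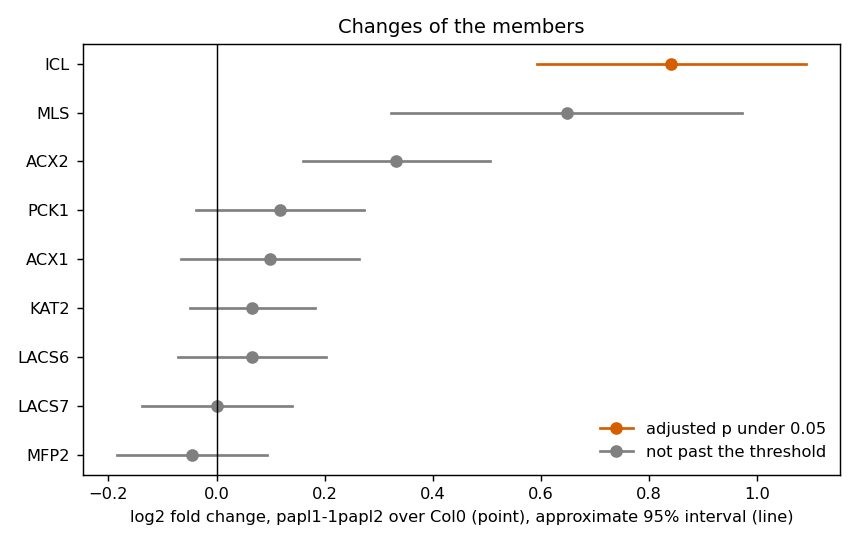
Log2 fold change of 9 members, papl1-1papl2 over Col0 (horizontal axis; points), with approximate 95% intervals (lines) from the edgeR quasi-likelihood fit. ICL (0.84) is the member past the adjusted threshold, MLS (0.65) and ACX2 (0.33) have intervals above 0 without an adjusted call, and the intervals of the other 6 members shown include 0.

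The members differed in level by about an order of magnitude. Per kilobase of the longest annotated transcript, KAT2 was highest, at 101 ± 2.08 CPM per kb in the libraries labelled papl1-1papl2 and 96.7 ± 3.31 CPM per kb in those labelled Col0 (SD, n = 3 each). PCK1, MFP2, ACX1 and LACS6 followed in that order under both labels. ACX1 and LACS6 overlapped in their ranges under both labels, so the order of that pair is not firm. ICL was lowest under both labels, at 14.3 ± 1.68 CPM per kb in the libraries labelled papl1-1papl2 and 7.99 ± 0.894 CPM per kb in those labelled Col0 (SD, n = 3 each). The place of MLS differed between the labels. It lay above LACS7 in the libraries labelled papl1-1papl2, where MLS ranged from 25.3 to 36.0 and LACS7 from 23.5 to 24.9 CPM per kb. In the libraries labelled Col0 it lay below LACS7, where MLS ranged from 17.1 to 22.7 and LACS7 from 23.2 to 25.7 CPM per kb.

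The 2 glyoxylate cycle enzymes also varied most between libraries of one label. The coefficient of variation of MLS was 18.5% in the libraries labelled papl1-1papl2 and 16.5% in those labelled Col0, and that of ICL was 11.8% and 11.2% under the same labels. For the other 8 members it lay between 1.89% and 8.82% in the libraries labelled papl1-1papl2 and between 3.30% and 9.58% in those labelled Col0. The genes whose pattern over the 6 libraries was most like the members' mean standardised profile were AT4G28410 (annotated as a tyrosine transaminase family protein), FUR1, SCN1, AT2G23780 and EIL1. Their likeness was Pearson's r of 0.981 to 0.999 among 13768 genes of at least 5 CPM, a search in which high values arise easily with 6 libraries. None of these 5 genes was called, and their adjusted p lay between 0.108 and 0.406 (edgeR's quasi-likelihood test).

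The rest of the pathway was read from lists of 78 other genes. Of these 64 were tested and 2 were called, both higher in the libraries labelled papl1-1papl2, the lipase SDP1 and the carboxykinase PCK2. That share is near the 2.76% called over all tested genes. The list of lipolysis and oil body genes had 5 of 9 members tested and 1 called, with a median log2 fold change of -0.02. At an unadjusted p under 0.05 (edgeR) there were 2 of these 5, SDP1 and CGI58, beside 15.9% of all tested genes. CGI58, a hydrolase of this list, was not called (adjusted p = 0.310, edgeR), but it was without replicate 3 labelled papl1-1papl2, at 0.00171. The oleosins OLEO1, OLEO2 and OLEO4, coat proteins of seed oil bodies, had 0 counts in all 6 libraries, and the caleosin CLO1 had at most 1. OLEO3 was detected in every library, with 39 to 78 counts, at 2.46 ± 0.510 CPM in the libraries labelled papl1-1papl2 and 3.11 ± 0.552 CPM in those labelled Col0 (SD, n = 3 each), and was not called (adjusted p = 0.520, edgeR's quasi-likelihood test). Of the 17 other beta-oxidation genes 0 were called in the edgeR quasi-likelihood test, with a median of -0.03. At an unadjusted p under 0.05 there were 2, ECH2 and KAT5, beside 15.9% of all tested genes. In the DESeq2 Wald test 0 of the 17 were called. Of the 11 tested genes of the glyoxylate cycle and gluconeogenesis 1 was called in the edgeR quasi-likelihood test, with a median of 0.05. In the same test 3 of the 11 were at an unadjusted p under 0.05, among them PCK2, beside 15.9% of all tested genes. Of the 25 tested peroxisome biogenesis and redox genes 0 were called in that test, also 0 at an unadjusted p under 0.05 and 0 in the DESeq2 Wald test, with a median of 0.02. The smallest p-value there was that of the catalase CAT1, at a log2 fold change of 0.22.

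**Figure D3:**
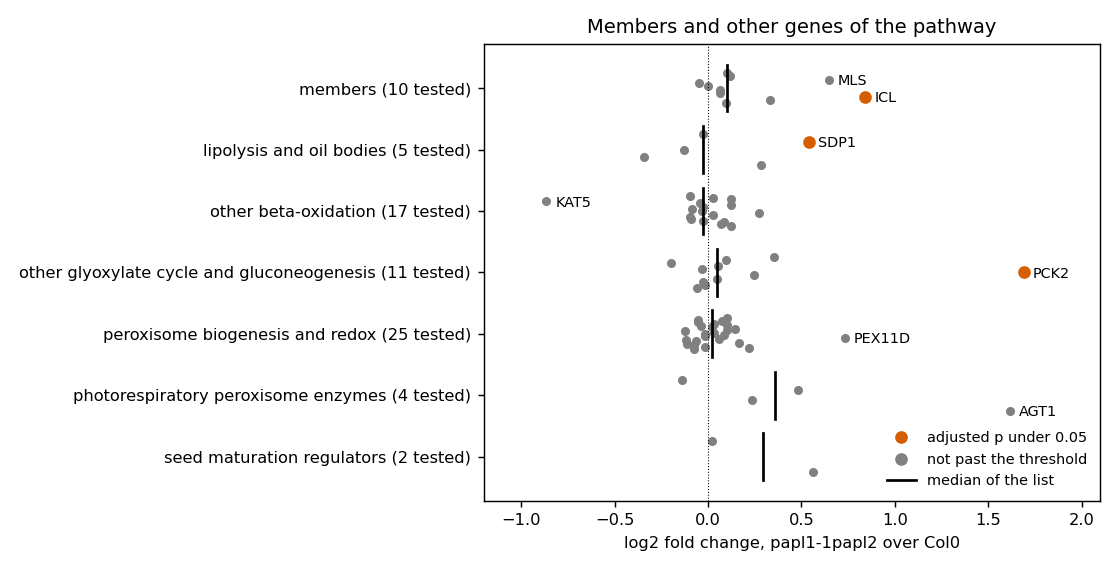
Log2 fold change (horizontal axis), papl1-1papl2 over Col0, of each tested gene in the members and the 6 other lists (rows), with the vertical bar at the median of each list. ICL, SDP1 and PCK2 are past the adjusted threshold, and the medians of the 25 peroxisome genes (0.02) and the 17 other beta-oxidation genes (-0.03) lie near 0.

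SDP1 (AT5G04040, chromosome 5) encodes the main lipase that starts the breakdown of seed oil. It was at 28.0, 32.0 and 25.8 CPM in the libraries labelled papl1-1papl2 (28.6 ± 3.17, SD, n = 3), against 19.8, 22.5 and 16.9 CPM in those labelled Col0 (19.7 ± 2.83, SD, n = 3). The labels did not overlap. SDP1 rose 1.45-fold, with an approximate 95% interval of 1.21 to 1.75 (adjusted p = 0.0489, edgeR's quasi-likelihood test). The call was lost with DESeq2 size factors (0.0514) and without any of 4 libraries, at 0.0828 and 0.186 without replicates 1 and 2 labelled papl1-1papl2 and 0.195 and 0.164 without replicates 1 and 3 labelled Col0. Its paralog SDP1L (AT3G57140) was at 15.1, 18.8 and 15.8 CPM in the libraries labelled papl1-1papl2, against 16.1, 18.1 and 16.3 CPM in those labelled Col0, and these values overlapped. Per kilobase, SDP1 made up 60.9% to 63.8% of the pair in the libraries labelled papl1-1papl2, against 49.6% to 54.3% in those labelled Col0.

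PCK2 (AT5G65690, chromosome 5), the second gene for phosphoenolpyruvate carboxykinase, had the highest fold change of the pathway lists. It was at 52.9, 69.4 and 45.7 CPM in the libraries labelled papl1-1papl2 (56.0 ± 12.1, SD, n = 3), against 18.9, 25.6 and 7.67 CPM in those labelled Col0 (17.4 ± 9.05, SD, n = 3). Values were spread widely under both labels but did not overlap. PCK2 rose 3.23-fold, with an approximate 95% interval of 1.91 to 5.45. Its log2 difference was 1.69 with SE 0.33 (adjusted p = 0.0323, edgeR's quasi-likelihood test). The adjusted p was 0.130 without replicate 2 labelled papl1-1papl2 and 0.162 without replicate 1 labelled Col0. PCK1 remained the larger part of the pair. Per kilobase, PCK2 made up 20.2%, 24.9% and 15.8% of the pair in the libraries labelled papl1-1papl2, against 8.74%, 11.2% and 3.52% in those labelled Col0.

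Other isozymes of the members were not called. Among the acyl-CoA oxidases ACX3, ACX4, ACX5 and ACX6 the log2 fold changes were 0.07, 0.09, -0.03 and -0.09, and the thiolase KAT1 was at -0.04. KAT5 (AT5G48880), another thiolase gene, was at 20.0, 19.5 and 6.93 CPM in the libraries labelled papl1-1papl2, against 28.7, 19.8 and 36.2 CPM in those labelled Col0. Replicate 3 labelled papl1-1papl2 was lowest, and replicate 2 labelled Col0 lay within the range of the other label. The log2 difference of KAT5 was -0.86 with SE 0.34 (adjusted p = 0.257, edgeR's quasi-likelihood test). KAT5 overlaps 1 gene on the opposite strand, and the use of strand in counting is not given in the sources used here. ECH2 (AT1G76150), a peroxisomal enoyl-CoA hydratase that also overlaps 1 gene on the opposite strand, was at 21.2 ± 1.13 CPM in the libraries labelled papl1-1papl2 and 17.6 ± 1.10 CPM in those labelled Col0 (SD, n = 3 each). ECH2 was not called (adjusted p = 0.147, edgeR).

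**Figure D4:**
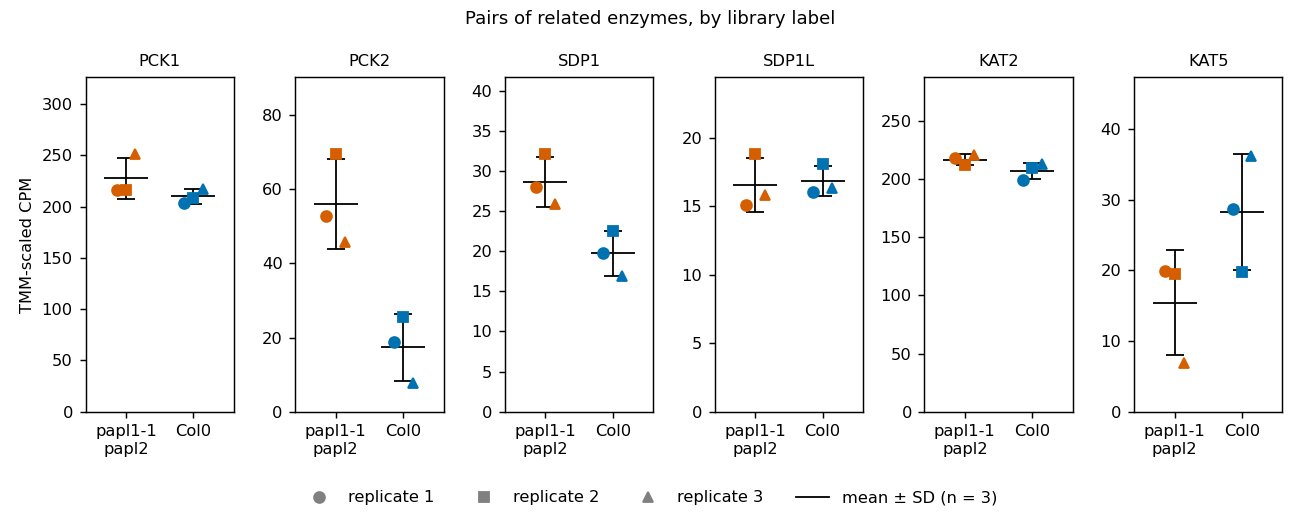
TMM-scaled CPM (vertical axis, starting at 0) of 3 pairs of related enzymes in each library, with papl1-1papl2 left of Col0 and the bars giving the mean ± SD of 3 libraries. PCK2 and SDP1 are separate between the labels, while PCK1, SDP1L, KAT2 and KAT5 overlap.

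Further lists bear on the peroxisome of green tissue and on the seed programme. Of 6 photorespiratory peroxisome enzymes 4 were tested and 0 were called in the edgeR quasi-likelihood test, with 2 at an unadjusted p under 0.05, AGT1 and the glycolate oxidase GOX2, beside 15.9% of all tested genes. AGT1 (AT2G13360), which turns glyoxylate into glycine in leaf peroxisomes, was at 4.54, 6.43 and 8.83 CPM in the libraries labelled papl1-1papl2, against 2.37, 3.22 and 0.857 CPM in those labelled Col0, from 18 to 158 counts. The labels did not overlap, and the log2 difference was 1.62 with SE 0.40 (adjusted p = 0.0744, edgeR's quasi-likelihood test). AGT1 was called in 3 of the 12 alternatives, among them the DESeq2 Wald test (adjusted p = 0.000434) and the fit without replicate 3 labelled papl1-1papl2, where the log2 difference was 1.35 (adjusted p = 0.0476). Over the 12 its adjusted p ran from 0.000434 to 0.245. Of 8 seed maturation regulators, LEC1, LEC2, FUS3, ABI4 and BZIP53 had 0 counts in all 6 libraries, and ABI3 was too low to be tested. WRI1, an activator of oil synthesis, was at 58.7 ± 5.44 CPM in the libraries labelled papl1-1papl2 and 57.7 ± 2.06 CPM in those labelled Col0 (SD, n = 3 each). ABI5 was at 2.71 ± 0.289 CPM in the libraries labelled papl1-1papl2 and 1.84 ± 0.816 CPM in those labelled Col0 (SD, n = 3 each), with overlapping values.

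The calls of the members were then compared over 12 other ways of fitting the data. ICL was past the threshold in 12 of 12, with log2 fold changes of 0.76 to 0.94 and a highest adjusted p of 0.0483, which was reached without replicate 1 labelled Col0. MLS was past it in 5 of 12 and ACX2 in 4 of 12, each with a positive log2 fold change in all 12. PCK1, KAT2, ACX1, LACS6, LACS7 and MFP2 were past it in 0 of 12, with adjusted p from 0.190 to 0.998 in the edgeR and DESeq2 tests.

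**Figure D5:**
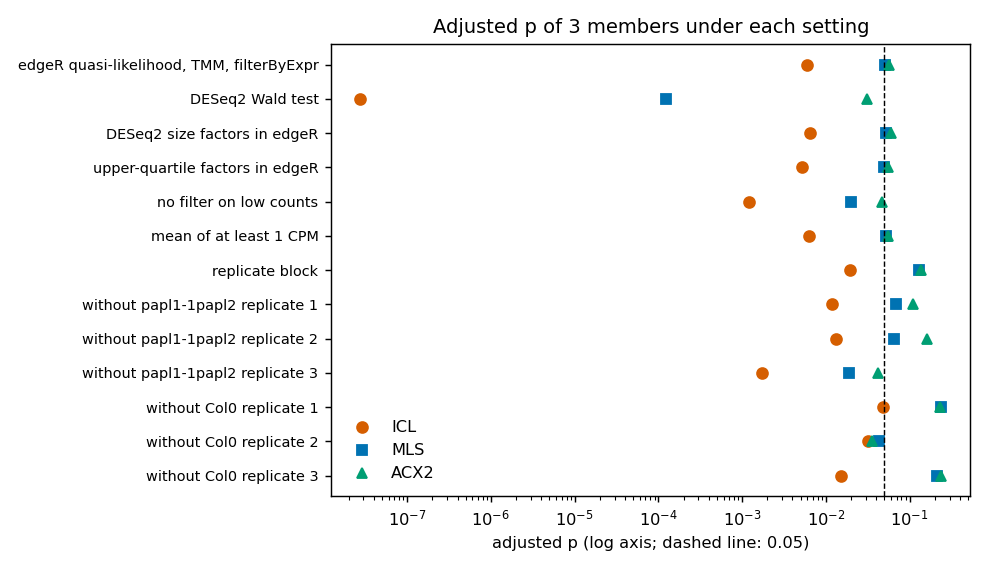
Adjusted p (horizontal log axis; dashed line at 0.05) of ICL, MLS and ACX2 in the chosen fit (top row) and in 12 alternatives (other rows). ICL lies left of the line in every row, and MLS and ACX2 lie on either side of it.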

How the data were processed

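RNA was sequenced from 6 libraries, 3 labelled papl1-1papl2 and 3 labelled Col0, grouped and numbered by their titles. The deposited file holds raw counts of reads per gene by the authors, with 0 value columns left unmatched. The submitters' processing notes name TopHat2, HTSeq, DESeq, DESeq2 and the build TAIR10. Versions, strand setting and annotation are not given in the sources used here. Libraries were made from poly-A RNA with PCR and, per the labels' protocols, no molecular identifiers are mentioned, so errors cover counting and the spread between libraries. The labels do not say that the 3 libraries came from separate plates, so p-values measure only the spread between them. Pairs of libraries of one label differed by more than counting noise (chi-square per degree of freedom 4.10 to 15.6).

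Counts were fitted in R 4.3.3 with edgeR 4.0.16 (filterByExpr with a minimum count of 10, TMM scaling, glmQLFit and glmQLFTest, with genotype alone in the model), with Benjamini-Hochberg adjustment over 17720 genes. A gene was called at an adjusted p under 0.05. SE is the absolute log2 fold change over the square root of F, and the approximate 95% intervals use the fit's degrees of freedom. The fit was also run on simulated counts drawn without an outlying library. That run cannot show how replicate 3 labelled papl1-1papl2 affects the calls. DESeq2 1.42.0 served as an alternative. Other alternatives were 2 normalisations, 2 filters, the replicate block, a stricter threshold and leaving out each library. Gene positions, products, transcript lengths and promoters came from the TAIR10.1 RefSeq assembly. The loci of COG1 and CDF4 came from general knowledge, since the annotation does not pair the names. APEM9 was dropped from the peroxisome list because its annotated product does not match its name. The members and lists were chosen with earlier results of these data known. For 1 of the 10 members, and 1 gene of the peroxisome list, single values are not reported here. Named are the other members, each list's called genes or otherwise its 2 smallest p-values, isozymes of members, the 5 genes most like the members, and genes chosen after their values were seen (SDP1L, CGI58, the untested oil body genes and the seed regulators).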

Additional observations from a re-analysis of the deposited data

How the results depend on the processing

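The number of genes called was 489, against 744 with the DESeq2 Wald test, 140 at the stricter threshold of 0.01 and between 144 and 1164 when 1 library was left out, lowest without replicate 1 labelled Col0 and highest without replicate 3 labelled papl1-1papl2. It was 173 without replicate 2 labelled papl1-1papl2 and 276 and 155 without replicates 2 and 3 labelled Col0. The number of members called was 1, against 3 with the DESeq2 Wald test, 2 with upper-quartile factors, 3 with no filter on low counts and 1 to 3 when 1 library was left out. The count of 3 was reached without replicate 3 labelled papl1-1papl2 and without replicate 2 labelled Col0, and the added members were MLS and ACX2. Over all tested genes the chosen fit called 489 of 17720. The DESeq2 Wald test called 744 of 17720, upper-quartile factors 531 of 17720 and the fit with no filter 626 of 22772. Without replicate 3 labelled papl1-1papl2 1164 of 17970 were called, and without replicate 2 labelled Col0 276 of 17937. With the replicate block, 259 genes were called, and ICL alone of the members, at an adjusted p of 0.0195. The titles state no shared plate or day, and same-numbered libraries did not deviate together (correlations of -0.107 to -0.00913), so the pairing was not used. The log2 fold change of LACS7, 0.00074 in the chosen fit, turned negative in 7 alternatives, at -0.0039 with the DESeq2 Wald test and with DESeq2 size factors (-0.0039), -0.0053 with no filter and -0.033 to 0.044 over the fits without 1 library (4 of these 6 negative), all far from the threshold. What causes these differences was not tested. The number of 3 libraries per label limits the precision, and root meristem is a mixture in which levels of single cell types were not measured.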
